A study of Mus musculus with 2 samples.

Results

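Wing cells are the middle layers of the stratified corneal epithelium, between the basal cells on the basement membrane and the squamous cells at the tear film. The cells described here were those carrying the label Wing in the authors' deposited cell table, 4876 of 17808 cells, or 27.4%. Of these, 2902 came from the control library of 9605 cells and 1974 from the diabetic library of 8203 cells. The study sequenced RNA of single corneal epithelial cells and set diabetic beside control animals, all male C57BL/6J mice 20 weeks old. Diabetic mice had received 1 injection of streptozotocin (STZ, 160 mg/kg), a toxin of the insulin-producing beta cells, and had blood glucose above 250 mg/dL through a study of 12 weeks. Control mice had received citrate buffer. Each library was a single pool of 4 corneas from 2 mice, so each group had 1 sample and animals could not be separated. Epithelial sheets were freed with enzyme G, dissociated with trypsin and captured with the Chromium Next GEM 3′ v3.1 kit, per the labels' protocols.

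A corneal keratinocyte leaves the basal layer, stops dividing and moves outward through the wing layers until it is shed. Wing cells hold the tissue together through desmosomes, cell-to-cell junctions made of desmogleins, desmocollins and plaque proteins tied to keratin filaments. Krt12 encodes the keratin specific to corneal epithelium, and soluble enzymes such as Aldh3a1 accumulate in the cytoplasm, where they absorb ultraviolet light and remove aldehydes.

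The Wing cells carried 78830540 unique molecular identifiers (UMIs, each one captured RNA molecule) in the control library and 52996325 in the diabetic library. Depth per cell was close, with medians of 19899.5 and 20039 UMIs and 3710.5 and 3719 genes, and the median mitochondrial share was 1.51% and 1.57%. The upper tails differed: 17 control Wing cells exceeded 100000 UMIs and held 4.31% of the control Wing total, against 2 diabetic cells with 0.413%. Barcodes shared by both libraries numbered 18, and 12 Wing cells carried one. Wing cells made up 30.2% of control cells (exact 95% binomial interval 29.3 to 31.1) and 24.1% of diabetic cells (23.14 to 25.005). These are shares of recovered cells, and fewer Wing cells in the tissue cannot be told apart from fewer recovered. All intervals here cover counting error only, not differences between mice, and with 1 library per group no test was possible.

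Levels are given in CPM, a gene's UMIs summed over the cells of a label in a library and scaled by the total of the same sum. The 4 Wing markers followed the label: each was higher in Wing than in the 7 other labels in the control library. Dsg1a, a desmoglein of differentiated layers, stood at 436 CPM in control and 387 in diabetic Wing cells, and the next label was Conj with 232 and 150. Lypd3, a membrane-anchored protein of suprabasal keratinocytes, stood at 429 and 394 CPM, again followed by Conj with 271 and 245. Krt12 reached 30116 and 32219 CPM in Wing cells, 21940 and 23664 in Basal cells and 12230 and 12520 in Squam cells. Dsc2, a desmocollin, separated Wing least well, at 450 and 400 CPM beside 437 and 436 in Conj cells, so that Conj was the higher label in the diabetic library. Since labels were made from these same cells, the ordering describes the label and was not tested.

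**Figure D1:**
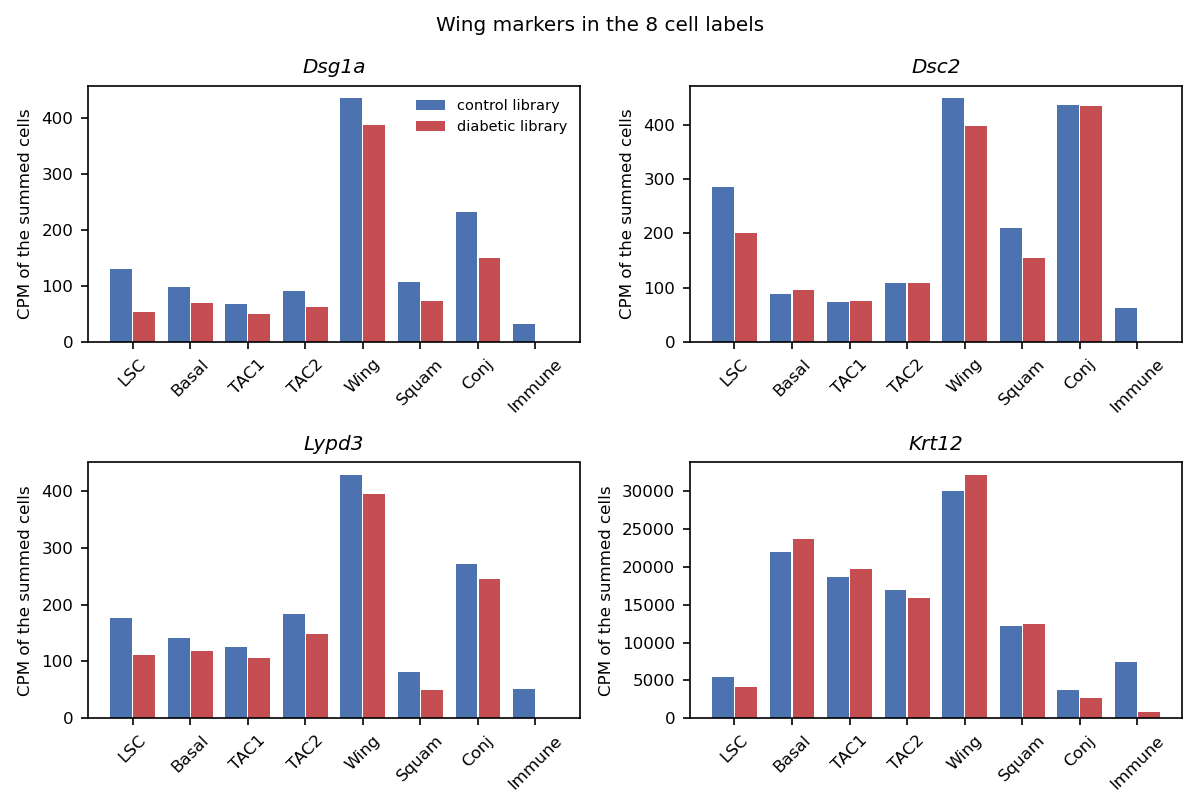
Level in CPM (linear axis from 0) of the 4 Wing markers in the summed cells of each of the 8 labels, with 1 bar per library. Wing bars are the tallest for Dsg1a, Lypd3 and Krt12 in both libraries, while Dsc2 is nearly level between Wing (450 and 400 CPM) and Conj (437 and 436 CPM).

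Few genes stood sharply above every other label in Wing cells. Of 4519 genes at 20 CPM or more in Wing cells of both libraries, 340 (7.52%) were above every other label in both libraries, and 24 (0.531%) were at least 1.5-fold above the next label in both. The other labels included Immune, with only 26 control and 10 diabetic cells and 96077 and 31401 UMIs, so single UMIs weigh heavily there. Immune was the highest label in both libraries for 424 of the 4519 genes, which lowers both counts for Wing by an unknown amount. The clearest were modest in fold. Smim31, a small membrane protein gene, stood at 34.8 and 42.0 CPM in control and diabetic Wing cells, 2.11-fold and 2.57-fold above Squam. Homer2, a scaffold protein of calcium signalling, stood at 297 and 275 CPM, 2.02-fold and 2.26-fold above TAC2. Dsg1b, a second desmoglein, stood at 33.2 and 31.5 CPM, 2.01-fold and 2.22-fold above the next label, although reads of Dsg1a and Dsg1b may be hard to separate. Others of this set were Gsta2, a glutathione transferase, Muc15, a membrane mucin, Scd2, a fatty acid desaturase, and Egln3, an oxygen-sensing prolyl hydroxylase, the last at 480 and 382 CPM against 240 and 214 in Conj cells. The others named by the rule were Dsg1a itself, Fam25c, Clip4, Guca1a, Dlg2, Sdr42e1, Fxyd4 and Paqr5, between 29.6 CPM for Dlg2 and 436 CPM for Dsg1a in control cells.

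The most abundant transcripts of Wing cells were mostly abundant in neighbouring labels too. After Krt12 came S100a6, a calcium-binding protein, at 28301 and 26258 CPM, and Tmsb4x, an actin monomer-binding thymosin, at 27166 and 25571 CPM. Gsta4, a glutathione transferase that removes lipid aldehydes, stood at 16843 and 14278 CPM, just above its level in Conj cells (16625 and 13621). Krt5, usually taken as a basal keratin, was highest in Wing cells, at 11540 and 12114 CPM against 8283 and 9269 in Conj. Aldh3a1 stood at 10386 and 11063 CPM, below Basal cells at 16284 and 17149. Aqp5, a water channel, Lypd2 and the secreted Ly6 protein Slurp1 were all between 6313 and 12543 CPM and higher in Squam cells. Across genes, the log levels of Wing were most like those of Conj (Pearson r = 0.942 over 6615 genes in control, 0.922 over 6680 in diabetic), then Basal (0.879 and 0.893). Genes are not independent replicates, and libraries are shared by the labels, so these r values are descriptions. Wing and Conj cells were nevertheless far apart in keratins: Krt15, a keratin of limbal and conjunctival epithelium, stood at 5870 and 6701 CPM in Wing and 26994 and 27484 in Conj.

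Wing cells were spread widely on a score of late against early genes. To compare cells at 1 depth, a random draw of 5000 UMIs was kept per cell, called thinning, which left out 129 control and 65 diabetic cells that were shallower. Every thinned cell was scored as the log2 ratio of its UMIs in 10 late genes, such as Psca, Cnfn and Krt78, to those in 10 early genes, such as Itgb4, Col17a1 and Krt5, with 1 UMI added to each. The median score was −1.82 in control and −1.81 in diabetic Wing cells, between Basal (−2.96 and −2.77) and Squam cells (4.06 and 4.49). The spread was wide, with interquartile ranges of −2.49 to −0.56 and −2.503 to −0.63. Krt5 gave most of the early UMIs, a mean of 57.2 and 58.8 per cell beside medians of 59 and 62 early UMIs in all, so the score follows mainly the late genes against Krt5. Pooled over both libraries, the Wing cells were divided into 4 equal bins of the score, and control and diabetic cells filled them evenly (24.5% to 25.4% and 24.3% to 25.8% per bin).

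Changes from the first to the fourth bin were taken as log2 ratios after adding 10 CPM to both levels, which damps genes of low level. Measured genes were the 12080 with 50 or more UMIs over both libraries. Of these, 226 were at least 2-fold higher and 185 at least 2-fold lower in both libraries. The genes that climbed most, leaving out those of the score, were surface and mucosal genes. Nccrp1, an F-box-like protein of squamous epithelium, went from 18.6 to 1031 CPM in control and from 21.5 to 1237 in diabetic cells. Krt13, a keratin of mucosal epithelium, went from 305 to 3523 and from 260 to 4716 CPM, and Krt15 from 1185 to 10039 and from 1538 to 14535. Ifitm1, Pglyrp1 (a peptidoglycan recognition protein), Krt19, Hopx and Enpp3 climbed as well. The genes that declined most were genes of the early side. Mt2, a zinc-binding metallothionein, went from 403 to 80.2 CPM in control and from 416 to 36.4 in diabetic cells, and Gja1, the gap junction protein connexin 43, from 114 to 19.0 and from 163 to 18.8. Pygl (glycogen phosphorylase), Glul (glutamine synthetase), Adh7, Dapl1, Fn1 and Dst declined too.

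Whole gene groups shifted along the bins. The log2 changes here again had 10 CPM added to both levels. Over all 12080 measured genes 8317 were lower and 2527 higher in the fourth than in the first bin in both libraries, with median log2 changes of −0.16 and −0.18. All 26 cytosolic ribosomal protein genes were lower in the fourth than in the first bin in both libraries, with median log2 changes of −0.95 and −1.15, as were all 13 mitochondrially encoded genes (−0.74 and −0.71) and all 14 SR splicing factors (−0.71 and −0.69). Of 13 tubulin and microtubule genes 12 were higher in both libraries (medians of 0.97 and 1.42), as were 13 of 17 keratins and 13 of 15 tight junction genes, lists that share members with the score. Among the Wing markers, Dsg1a went from 487 to 386 CPM in control and from 369 to 386 in diabetic cells, and Krt12 from 33110.5 to 25758 and from 31922 to 28583. Pax6, the transcription factor that specifies the eye and its surface, went from 593 to 342 and from 664 to 358 CPM.

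**Figure D2:**
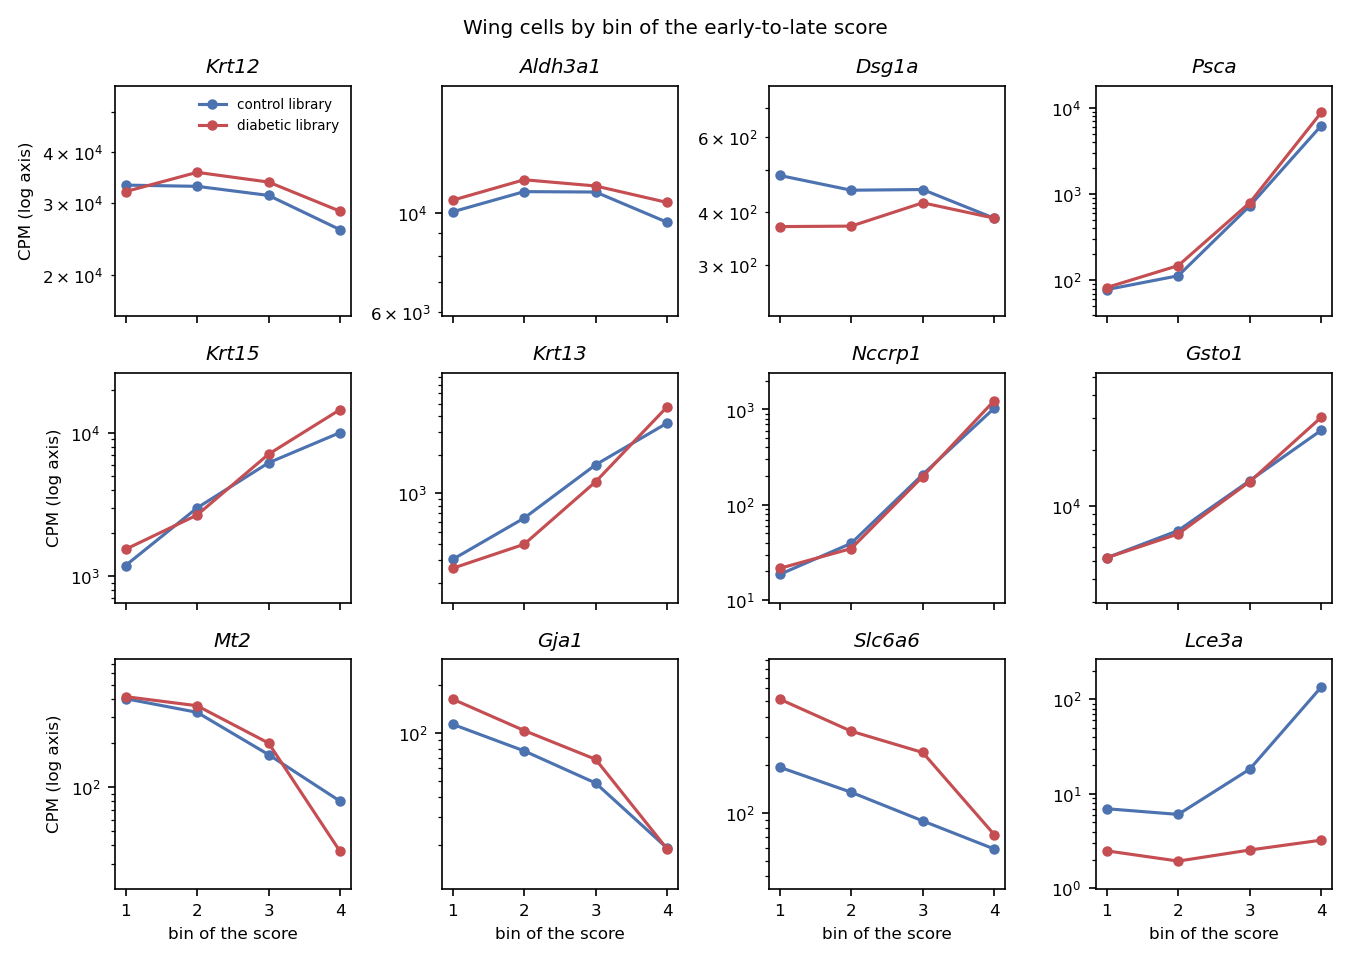
Level in CPM (log axis) of 12 genes in the 4 bins of the early-to-late score, with 1 line per library. Psca belongs to the late list of the score. Krt15, Krt13 and Nccrp1 climb and Mt2 and Gja1 decline in both libraries, the diabetic excess of Slc6a6 narrows from 514 against 193 CPM in the first bin to 73.0 against 59.3 in the fourth, and Lce3a climbs in control cells to 135 CPM but stays at 3.24 CPM or less in diabetic cells.

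Among individual Wing cells the variation was largest for the unnamed gene model Gm42418, followed by Krt15 and Gsto1, which climb along the bins. In thinned cells the ratio of variance to mean (Fano factor) was 99.3 in control and 159 in diabetic cells for Gm42418, 54.5 in control and 67.1 in diabetic cells for Krt15 and 43.0 and 54.6 for Gsto1, an omega-class glutathione transferase, beside a median of 1.05 over 4563 genes in both. The nuclear noncoding RNA Malat1, at 40.8 and 36.3, was also among the most variable. Krt12 itself varied, with 17.3 and 17.7, at means of 163 and 172 UMIs per thinned cell, and no thinned cell lacked it. The Fano factor was not adjusted for level, and the abundant S100a6 and Tmsb4x also had high values (39.3 and 15.7 in control cells). Cells with more Krt12 had less Krt4 and Krt15: Pearson r across cells was −0.50 over 2773 control and −0.61 over 1909 diabetic cells for Krt12 with Krt4, and −0.52 and −0.50 for Krt12 with Krt15. Krt15 went with S100a6 (r of 0.64 and 0.67) and Krt13 with Gsto1 (0.70 and 0.73). Cells of 1 library share its capture and amplification, and a fixed total makes abundant genes trade off, so these are descriptions.

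The main comparison set diabetic against control Wing cells. A gene was called higher or lower by a rule of size: 50 or more UMIs over both libraries, a CPM ratio of at least 1.5, and exact 95% Poisson intervals that do not overlap. Of 12080 measured genes, 475 were called higher (3.93%) and 313 lower (2.59%), together 6.52%, and the median log2 ratio over all measured genes was 0.04. The rule describes these libraries, and a call is not a test between conditions. Wing was among the labels with more genes higher than lower, while Squam cells had 185 higher and 799 lower. Most of the Wing calls were small or at low level: 153 and 119 were 2-fold or more. Next come 14 of the 15 genes with the largest differences in each direction, after adding 10 CPM to damp low levels.

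**Figure D3:**
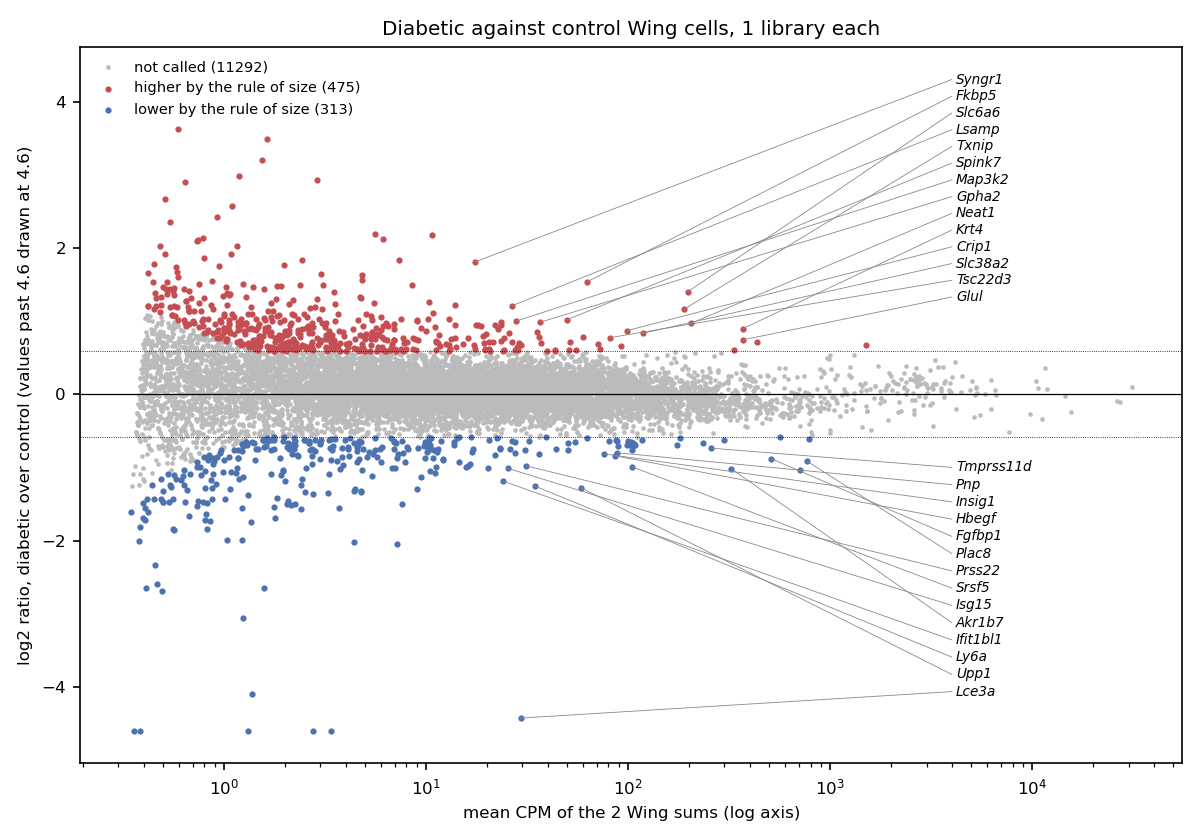
Log2 ratio of CPM, diabetic over control Wing cells, against the mean CPM (log axis) for the 12080 measured genes. Colours mark the 475 genes called higher and 313 called lower, dotted lines the 1.5-fold limits, and names the 14 genes per direction described in the text.

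Slc6a6, the transporter that imports the osmolyte taurine, was at 108 CPM in control and 286 in diabetic Wing cells, a ratio of 2.64 (95% counting interval 2.57 to 2.71). Its ratio was 2.53 in Conj, 1.81 in Basal, 1.74 in TAC2, 1.65 in TAC1, 1.21 in LSC and 1.06 in Squam cells. Within Wing cells it was 2.67 in the earliest bin and 1.23 in the latest. Txnip, a glucose-responsive inhibitor of thioredoxin and of glucose uptake, was at 117 and 261 CPM, a ratio of 2.23 (2.17 to 2.29), and close to that in Basal (2.09) and Squam cells (2.16). The Txnip ratio was 1.75 in TAC1, 1.63 in TAC2, 1.19 in Conj and 1.08 in LSC cells. Fkbp5, a co-chaperone of steroid receptors induced by glucocorticoids, was at 32.2 and 93.5 CPM, a ratio of 2.90 (2.77 to 3.05), which was smaller than in Basal (8.77) and Squam cells (5.75). The Fkbp5 ratio was 3.63 in TAC1, 3.35 in TAC2, 3.26 in Conj and 2.57 in LSC cells. Tsc22d3, the glucocorticoid-induced leucine zipper, was at 60.1 and 103 CPM, 1.71-fold. Among the labels given, the ratios of Slc6a6 and Txnip were thus largest in Wing cells and that of Fkbp5 in Basal cells. This pattern was not tested.

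Other genes called higher covered transport, adhesion, keratin and nuclear RNA. Syngr1, a synaptogyrin of vesicle membranes, was at 7.78 and 27.3 CPM, 3.50-fold. Neat1, the noncoding RNA that scaffolds nuclear paraspeckles, was at 139 and 273 CPM, 1.96-fold. Krt4, a keratin of mucosal epithelium, was at 258 and 480 CPM, 1.86-fold. Its ratio was 0.948 in Basal cells, where it stood at only 4.71 and 4.47 CPM. In the other labels it was 1.25 (LSC), 1.64 (TAC1), 1.79 (TAC2), 1.58 (Squam) and 1.61 (Conj). Krt4 was found in 37.0% of control and 36.1% of diabetic Wing cells, and the top 10 cells held 19.2% and 16.4% of its counts. At lower level, Lsamp, an adhesion molecule known from neurons, was at 16.03 and 37.0 CPM (2.31-fold), Gpha2, a hormone subunit known from limbal stem cells, at 24.7 and 48.8 CPM (1.98-fold), and the kinase Map3k2 at 18.7 and 37.3 CPM (2.00-fold). Nutrient handling was represented by Slc38a2, a neutral amino acid transporter (85.1 and 152 CPM, 1.78-fold), and Glul (278 and 465 CPM, 1.67-fold). Spink7, a serine protease inhibitor, was at 33.1 and 67.2 CPM, 2.03-fold, and Crip1, a LIM-domain protein, at 69.7 and 127 CPM, 1.83-fold. In the latest bin both ratios were below 1, at 0.695 for Spink7 and 0.599 for Crip1.

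Lce3a, a late cornified envelope gene of surface cells, had the largest fall where 1 of the libraries reached at least 20 CPM and 10 CPM were added to both levels. It stood at 56.4 CPM (4443 UMIs) in control and 2.62 CPM (139 UMIs) in diabetic Wing cells, a 21.5-fold lower level. In Squam cells it was at 3013 and 3067 CPM. Its control counts were concentrated: the 10 Wing cells with the most Lce3a held 42.2% of them, and the fourth bin had 135 CPM in control and 3.24 in diabetic cells. Chosen after their values were seen, the surface genes Lce3f (525 and 5 UMIs) and Crct1 (426 and 7 UMIs) and the keratin gene Krt23 (204 and 8 UMIs) were also called lower. The top 10 cells held 40.4%, 55.2% and 30.4% of their control counts. Surface genes did not all fall. Of 11 measured cornified envelope genes, 1 (Ly6d) was called higher and 0 lower. Their ratios were above 1 in 7 and below 1 in 4. Likely doublets, droplets that may hold 2 cells, were taken as the 8% of cells per library with the highest Scrublet scores. Without them the log2 ratio of Lce3a in Wing cells was −4.44, beside −4.43 with them.

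The other genes with the largest falls were spread over more cells. Fgfbp1, which releases fibroblast growth factors from the matrix, was at 663 and 360 CPM, 1.84-fold lower, and its ratio in the 5 other corneal labels lay between 0.342 in Basal and 0.565 in LSC cells. Plac8, a small cysteine-rich protein, was at 1007 and 534 CPM, 1.89-fold lower. Akr1b7, an aldo-keto reductase related to aldose reductase, was at 435 and 214 CPM, 2.03-fold lower, with a ratio of 0.177 in Basal cells. All of these abundant transcripts, Fgfbp1, Plac8 and Akr1b7, had ratios below 1 in Basal and Squam cells as well. Upp1, which breaks down uridine, was at 82.4 and 34.0 CPM (2.42-fold lower), Pnp, which breaks down purine nucleosides, at 112 and 64.3 CPM (1.74-fold), and the splicing factor Srsf5 at 139 and 70.0 CPM (1.99-fold). The serine proteases of epithelial surfaces Tmprss11d (323 and 194 CPM) and Prss22 (41.5 and 21.1 CPM) were 1.67-fold and 1.97-fold lower. Ly6a, the surface protein Sca-1, was at 48.8 and 20.4 CPM, and Hbegf, a ligand of the epidermal growth factor receptor, at 111 and 61.7 CPM, 2.39-fold and 1.79-fold lower.

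**Figure D4:**
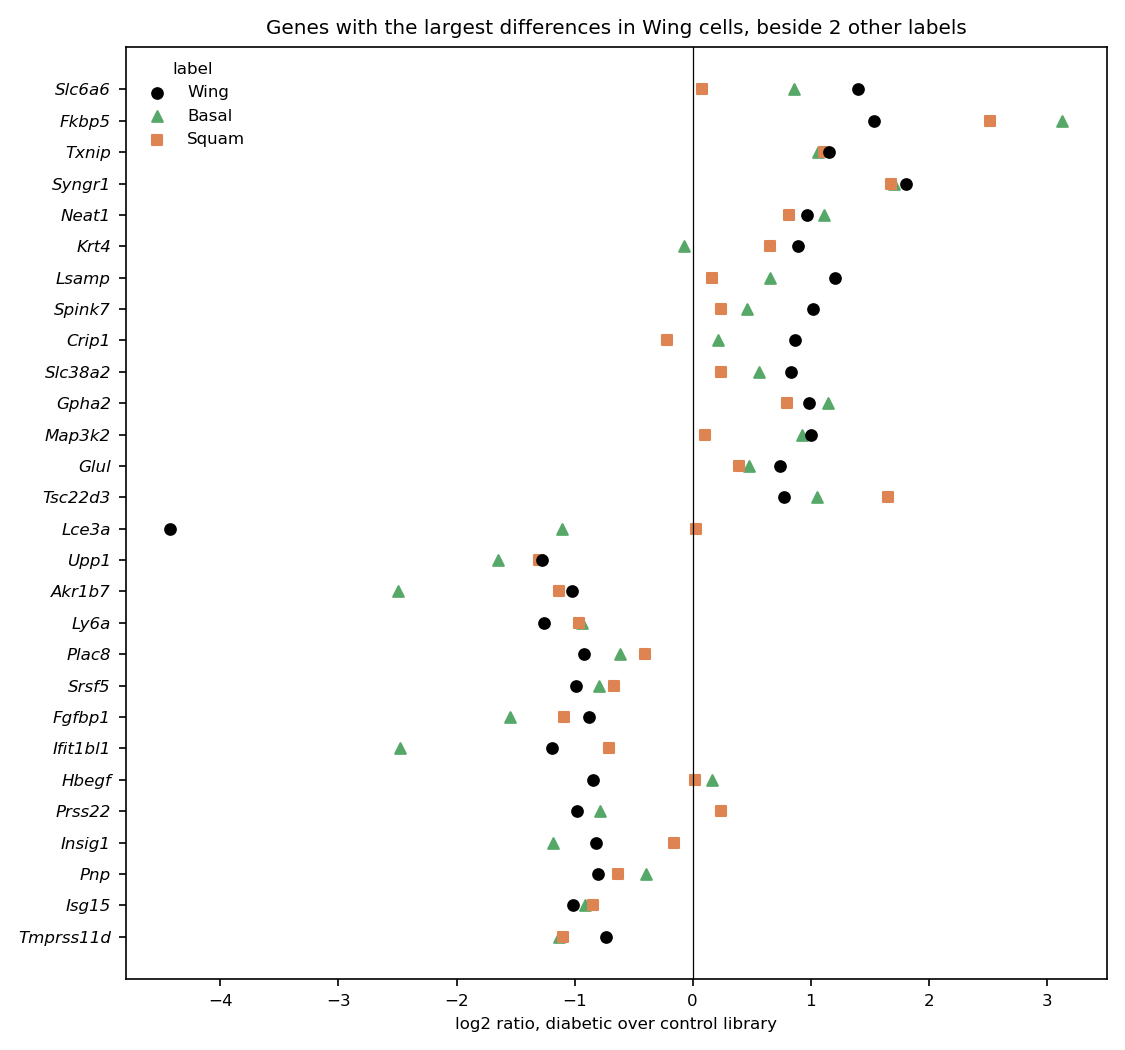
Log2 ratio, diabetic over control, of 14 of the 15 genes per direction with the largest differences in Wing cells, beside the ratio of the same genes in Basal and Squam cells. Txnip and Syngr1 nearly coincide in the 3 labels, Fkbp5 is lower in Wing than in both others, and Lce3a, Hbegf and Krt4 lie apart from Basal, Squam or both.

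Of the 788 Wing calls, 225 were called the same way in Basal cells and 0 the opposite way, and 180 the same way and 6 the opposite way in Squam cells, labels that come from the same 2 libraries. Over all genes, Basal cells had 303 called higher and 274 lower of 11526 measured, and Squam cells 185 and 799 of 10313. How many of the 788 were measured in those labels is not given here. Called genes were chosen for a large Wing ratio, which itself favours a place outside the other labels. The same share over all measured genes is not given here, so the next counts have no background. Of 614 called genes with 2 or more of the 5 other corneal labels measured, 256 were higher in Wing than the ratio of every measured label and 70 lower than every one. Those farthest outside were nearly all at low level, among them Cngb3, a channel subunit, at 0.0888 and 1.09 CPM, Aspm, a spindle protein, at 0.216 and 0.811, the linker histone Hist1h1a at 0.279 and 1.21, Aunip at 0.292 and 0.755 and Cnnm1 at 0.178 and 0.906. On the lower side, beside Lce3a, were Flrt2, Pfkp, Cyp2f2 and Tubb6, each at 1.32 CPM or less. The differences between labels were not tested.

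Gene groups tied to glucocorticoids, sugar, osmolytes and retinoids each had 3 or 4 members called higher. The members of all groups were chosen with earlier results of these data known, so counts are given beside the background shares above. Of 12 measured glucocorticoid-induced genes 4 were called higher and 0 lower, with a median log2 ratio of 0.28. Beside Fkbp5 and Tsc22d3 these were Zbtb16, a transcriptional repressor (1.67 and 4.13 CPM), and Cdkn1c, a cell cycle inhibitor (8.41 and 14.7 CPM). Sgk1 (106 and 108 CPM) and Per1 (17.2 and 18.2 CPM), other textbook targets, had ratios of 1.02 and 1.06. Of 16 genes of glucose and insulin response, 3 were called higher (Txnip, Igfbp5 and Igfbp7) and 0 lower. Igfbp5 (15.5 and 25.4 CPM) lost its call under 4 alternative settings, and Igfbp7 rests on 24 and 44 UMIs, 66.7% of the control UMIs in 10 cells. The median of the group, 0.31, was 0.09 without the 230 control and 291 diabetic Wing cells that held 2 or more mitotic UMIs before thinning, an alternative chosen after seeing the data. Of 12 genes of the polyol and osmolyte group, which turn glucose into sorbitol or import osmolytes, 3 were called higher and 1 lower. The higher ones were Slc6a6, the inositol carrier Slc5a3 (0.634 and 1.36 CPM) and Akr1b8 (2.18 and 4.11 CPM), and the lower one Akr1b7. Akr1b3, aldose reductase itself, was at 436 and 322 CPM, and Sord, the next enzyme, at 28.2 and 37.3. Retinoid metabolism had 3 of 10 members called higher, Rdh10 and Aldh1a1 among them, and 0 lower.

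Cholesterol synthesis genes were below control together. All 19 measured members had a ratio below 1, with a median log2 ratio of −0.49, whereas 56.9% of all measured genes had a ratio above 1. By the rule 4 were called lower and 0 higher: Mvd, which makes isopentenyl diphosphate (46.3 and 26.2 CPM), Fdft1, squalene synthase (133 and 82.3 CPM), Hsd17b7, a sterol ketone reductase (33.7 and 21.5 CPM), and Insig1, the sterol sensor that holds back the pathway (97.4 and 55.3 CPM). Their levels were 1.77-fold, 1.62-fold, 1.57-fold and 1.76-fold lower. Fdps, which makes farnesyl diphosphate, was at 944 and 662 CPM, short of 1.5-fold. The median lay below 0 in each of the 4 bins, from −0.66 in the first to −0.25 in the fourth. It was −0.58 in Basal, −0.50 in TAC2, −0.39 in Squam and −0.02 in Conj cells.

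The promoters of this pathway are known to carry CCAAT boxes, bound by NF-Y beside the sterol-sensing factor SREBP, so the windows of 3 of the genes called lower are shown. The letters CCAAT or their reverse complement ATTGG, in capitals, were searched on both strands in the 250 bases before the start site given by RefSeq (GRCm38.p6). The windows lie at chr8:122443425-122443502 for Mvd and chr1:169969206-169969390 for Hsd17b7, both on the minus strand, and at chr5:28071176-28071220 on the plus strand for Insig1, and are read 5′ to 3′ along the gene.
Mvd: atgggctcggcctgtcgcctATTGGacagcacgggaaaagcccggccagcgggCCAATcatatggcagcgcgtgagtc
Hsd17b7: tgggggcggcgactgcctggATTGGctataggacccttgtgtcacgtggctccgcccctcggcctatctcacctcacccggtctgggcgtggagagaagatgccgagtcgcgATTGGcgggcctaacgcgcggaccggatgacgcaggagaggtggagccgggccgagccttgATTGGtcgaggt
Insig1: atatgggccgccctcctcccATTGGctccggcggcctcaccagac
All 13 measured pathway genes that RefSeq's promoter table holds had CCAAT, as did 40.9% of 9429 measured genes and 37.5% of all 27025 promoters. The sterol element, TCAC, any base and CCAC, occurred in 1 of the 13, Hmgcs1, and in 1.20% of measured genes. A match is a description of the letters and not evidence of binding.

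Interferon-response genes were lower as well. Of 20 measured members, 6 were called lower and 0 higher, with a median log2 ratio of −0.30 and 18 members below 1. Isg15, a ubiquitin-like modifier, was at 34.0 and 16.9 CPM, 2.02-fold lower. Ifit1bl1, of the family that binds foreign RNA, was at 33.4 and 14.7 CPM, 2.28-fold lower, and its relatives Ifit1 (10.4 and 5.45 CPM), Ifit3 (12.9 and 8.02 CPM) and Ifit3b (9.34 and 5.11 CPM) were also called. Zbp1, a sensor of left-handed nucleic acid, completed the set at 1.52 and 0.83 CPM. The regulators Irf7 (24.5 and 19.1 CPM) and Irf9 (11.2 and 10.4 CPM) fell short of the rule. Ifit genes are close copies, and reads could be split among them. The median was below 0 in each bin (−0.43, −0.27, −0.23 and −0.38) and −0.61 in Squam cells, where levels are much higher (Ifit1bl1 at 1188 CPM in the control library). In the 11 genes of MHC class I presentation, Psmb9, an immunoproteasome subunit, was called lower (55.4 and 33.0 CPM) and 10 members were below 1.

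Interferon signals through the interferon-stimulated response element, bound by STAT and IRF proteins, and the 5 genes called lower that the promoter table holds all carry its core. The letters GAAA, any 2 bases and GAAA, or the reverse complement, in capitals, were searched on both strands in the same 250 bases, with overlapping matches joined, as in Isg15 where 3 matches overlap. The windows lie at chr4:156200855-156200916 (minus strand) for Isg15, chr19:34640765-34640833 (plus) for Ifit1, chr19:34602043-34602092 (minus) for Ifit1bl1 and chr19:34583353-34583436 (plus) for Ifit3.
Isg15: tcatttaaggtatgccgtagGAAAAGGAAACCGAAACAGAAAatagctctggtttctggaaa
Ifit1: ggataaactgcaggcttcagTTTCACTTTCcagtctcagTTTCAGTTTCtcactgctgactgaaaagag
Ifit1bl1: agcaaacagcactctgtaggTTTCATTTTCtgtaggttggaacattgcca
Ifit3: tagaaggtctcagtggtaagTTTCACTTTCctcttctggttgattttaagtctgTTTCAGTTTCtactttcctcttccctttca
The same 84 bases occur at Ifit3b, chr19:34607749-34607832. Among the 15 measured members in the promoter table, 8 held the motif, against 3.11% of 9429 measured genes and 3.46% of all 27025 promoters. No window shows whether a factor was bound.

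Junction genes of the Wing cell had few calls. Of 13 desmosome genes 0 were called in either direction over all Wing cells, which is near the background share, with a median log2 ratio of −0.06. Over these cells Dsp, desmoplakin, was at 1410 and 1571 CPM, Jup, plakoglobin, at 693 and 693, and Perp at 2363 and 2379. In the first bin the desmosome median was −0.26, with 9 of 11 ratios below 1 and 1 gene called higher. Of 10 adherens junction genes 0 were called. Among 17 keratins 3 were called higher and 2 lower. The higher were Krt4, Krt18 (1.02 and 2.83 CPM) and the basal Krt14 (34.4 and 52.3 CPM), and the lower Krt23 and the conjunctival Krt7 (6.25 and 2.51 CPM). Of 25 corneal transcription factors 2 were called higher, Barx2 and Ovol2, a repressor that keeps cells epithelial (14.3 and 25.4 CPM), while Pax6 was at 444 and 533 CPM and Klf4 at 979 and 1178. Of 12 basal adhesion genes 1, the laminin receptor Bcam, was called higher, a call lost without the cells of 2 or more mitotic UMIs, and the median of 0.42 came from members just short of the rule, such as Col17a1 at 319 and 419 CPM and Dst at 137 and 204. The connexin Gja1 was called higher (57.2 and 88.0 CPM) and Gjb6 lower (8.46 and 5.36 CPM). Gja1 lost its call under 5 alternative settings, with log2 ratios of 0.42 to 0.57 beside 0.62.

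Tubulins and growth factor ligands were among the groups with falls. Of 13 tubulin and microtubule genes 5 were called lower and 0 higher, with a median of −0.30, among them Tubb2a (131 and 77.2 CPM), Tubb2b (130 and 81.6 CPM) and the microtubule-associated Tppp3 (35.1 and 20.1 CPM). Tubulin genes are close copies, and the median was −0.19 in thinned cells. Of 12 genes of epidermal growth factor signalling, the ligands Hbegf and Areg (21.4 and 12.8 CPM) were called lower, and the receptors Egfr (62.1 and 69.3 CPM) and Erbb2 (45.5 and 51.1 CPM) were not called. Of 10 cytokine genes 3 were called lower: Il1a, the alarmin interleukin (15.1 and 7.15 CPM), Slpi, a protease inhibitor, and the chemokine Cxcl16, whose call was lost under 5 alternative settings. The group's median of −0.37 was 0.00 in thinned cells. Srsf3 and Srsf5 were the called members of 14 SR splicing factors, both lower.

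The remaining groups held few calls. Cytosolic ribosomal protein genes had 0 calls among 26, a median of 0.13 and 23 members above 1. The nuclear respiratory chain had 0 calls among 20 and 17 members below 1 (median −0.17), the unfolded protein response 0 among 16 (−0.18), the mitochondrially encoded genes 0 among 13 (0.02), heat shock genes 0 among 14 (0.04), the pentose phosphate and glycogen group 0 among 15 (−0.08), autophagy and lysosome 0 among 14 (0.03), membrane mucins 0 among 9 (−0.07), the Notch pathway 0 among 12 (0.06), and metallothioneins 0 among 5 (0.20). Immediate early genes had 2 of 15 higher, Atf3 (0.457 and 1.72 CPM) and Fosb (8.32 and 19.4 CPM), with a median of 0.29, below the 0.94 of TAC1 cells. One gene each was called in the groups of glycolysis (Pfkp, lower), actin cytoskeleton (Tmsb10, lower, 361 and 234 CPM), nerve cues (Bdnf, lower), fatty acid oxidation (Angptl4, higher), TGF-beta and BMP (Tgfbr2, higher, a call lost under 5 alternative settings), S100 proteins (S100a4, higher), cornified envelope (Ly6d, higher), tight junction (Cldn1, higher), barrier lipids (Cyp2b19, higher) and corneal crystallins (Aldh1a1, higher). The groups with mixed or paired calls were Wnt (Dkk3 and Wnt11, higher), antioxidant genes (Gclc higher, Hmox1 and Gstp1 lower), ion and water transport (Atp1b1 higher, Trpv4 lower), surface proteases (Tmprss11f higher, Tmprss11d and Prss22 lower), the circadian clock (Arntl higher, Ciart lower) and cell cycle inhibitors (Cdkn1c higher, Cdkn2a lower).

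**Figure D5:**
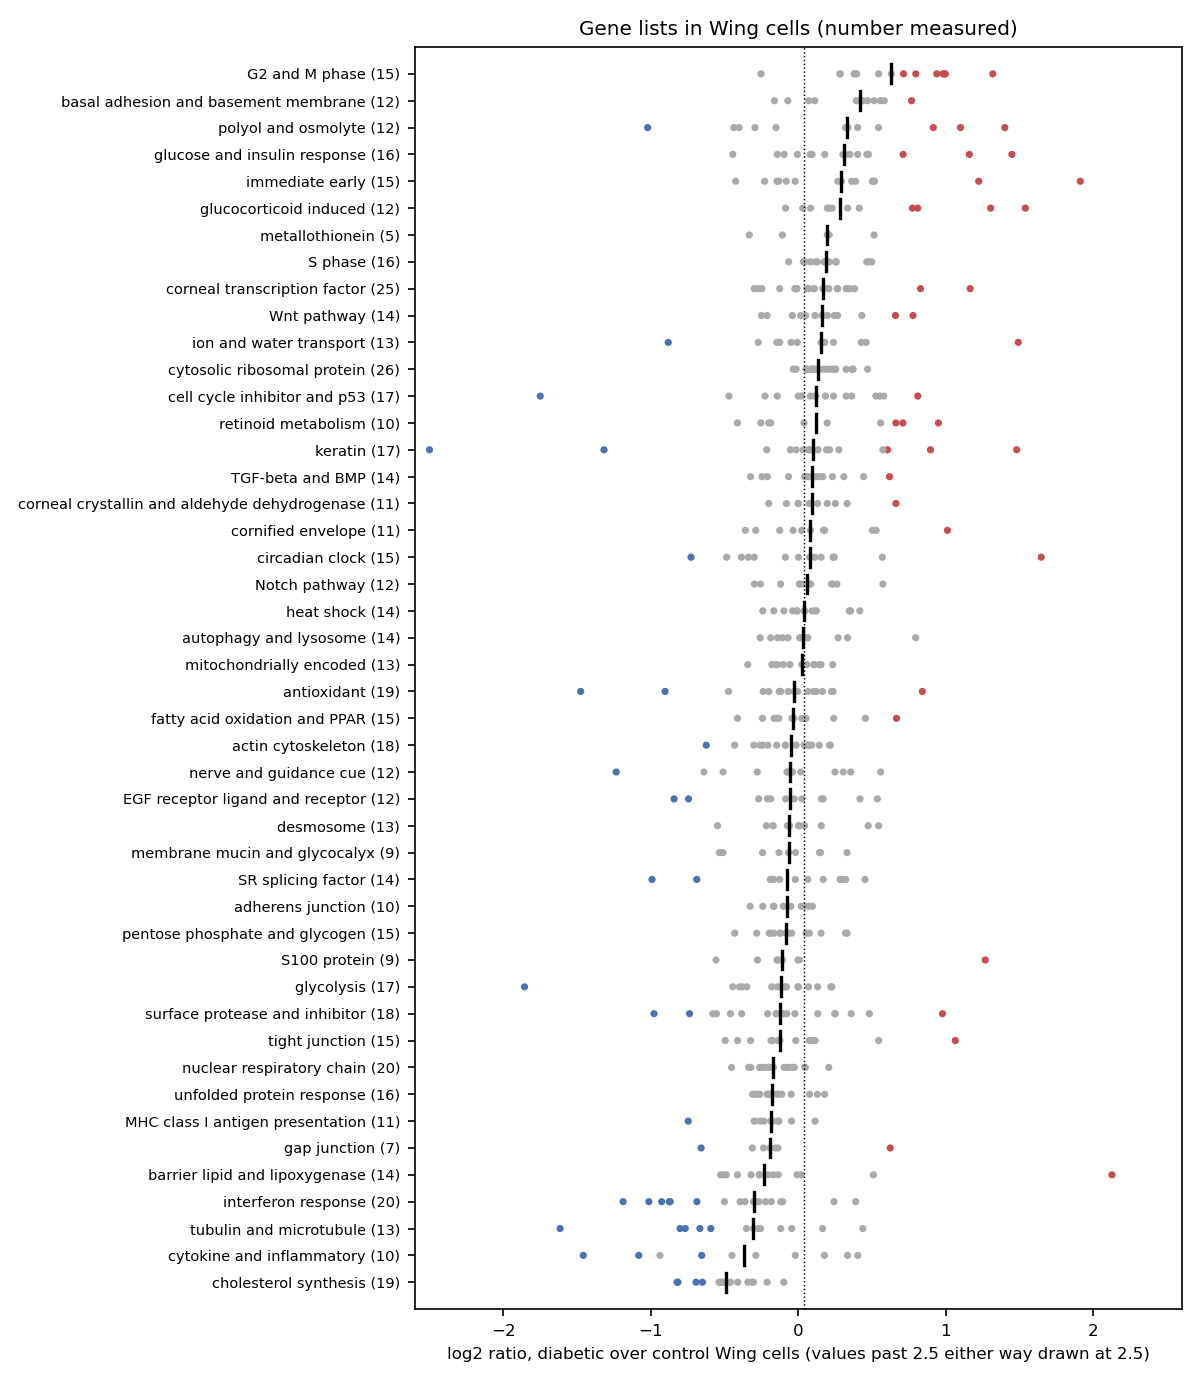
Log2 ratio, diabetic over control Wing cells, of each measured member of the 46 gene lists, with the number measured in brackets. Black ticks are list medians, colours mark members called higher or lower, and the dotted line is the median of all measured genes (0.04). G2 and M phase genes lie at the top (median 0.63) and cholesterol synthesis genes at the bottom (−0.49).

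The balance of higher and lower calls was not the same along the score, a difference that was not tested. In the first 3 bins more genes were called higher than lower (265 and 212, 232 and 193, 352 and 186), while in the fourth 194 were called higher and 479 lower of 10189 measured. In that last bin the median score was 0.55 in control and 0.88 in diabetic cells, so the diabetic cells there lay further along, and 13.5% of control against 7.45% of diabetic cells were likely doublets. Without likely doublets the fourth bin had 179 higher and 374 lower. The part of these values in the result was not tested. Some groups of the early side had their lowest medians in the last bin: the median log2 ratio of metallothioneins was −0.03, 0.05 and 0.02 in the first 3 bins and −0.63 in the fourth, and that of basal adhesion genes, several of which are early genes of the score, 0.30, 0.35, 0.33 and −0.23. Polyol and osmolyte genes went from 0.24 to −0.32. Of the measured G2 and M phase genes 8 of 10 were called higher in the first bin (median 1.15), 6 of 8 in the second (1.28) and 3 of 9 in the third (0.56), while in the fourth 0 were called higher and 2 of 7 lower (−0.81). S phase genes had 0 calls among 16 over all Wing cells (0.18), but 7 of 16 were called higher in the first bin (0.57), 0 in the next 2 bins, and 6 of 15 lower in the fourth (−0.41). Cholesterol, interferon and tubulin genes kept medians below 0 in all 4 bins.

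Mitotic transcripts were higher in the diabetic Wing cells. Of 15 genes of G2 and M phase, 7 were called higher and 0 lower, with a median log2 ratio of 0.63. Mki67, the proliferation marker, was at 2.74 and 6.83 CPM, 2.49-fold, and Top2a, the DNA topoisomerase of dividing cells, at 4.10 and 7.11 CPM, 1.74-fold. These levels are low beside TAC2 cells, where Mki67 was at 325 CPM in the control library. The transcripts came from few cells. After thinning to 5000 UMIs, 35 of 2773 control Wing cells (1.26%, exact 95% interval 0.881 to 1.75) and 87 of 1909 diabetic cells (4.56%, 3.67 to 5.59) had 2 or more UMIs of the list. Unthinned, the shares were 7.93% and 14.7%. Squam cells, which have left the cell cycle, gave 0.649% and 0.841% in the same count, Basal cells 5.37% and 5.52% and TAC2 cells 87.6% and 93.4%. The share was also higher in the diabetic library in Conj cells, at 0.885% and 2.56%, and in LSC cells, at 4.73% and 10.8%, with exact intervals of the libraries that overlapped in both labels. The median log2 ratio of the list was 1.18 in Conj and 1.95 in LSC cells. Whether the difference in Wing cells is larger than in these labels was not tested.

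The mitotic Wing cells held fewer Wing and more Basal marker UMIs than the other Wing cells. Summed Wing markers were 294 and 297 per 10000 UMIs beside 341 and 359 in the other Wing cells, and summed Basal markers 11.5 and 12.8 beside 6.09 and 6.80. The TAC2 markers Mki67, Top2a, Ube2c and Ccnb1 belong to the list that picked the mitotic cells, so an excess was set by the selection. Summed TAC2 markers were 1.89 and 3.49 beside 0.0730 and 0.0966. Their median Krt12 was 129 and 135 UMIs per thinned cell beside 163 and 176 in the other Wing cells, and their median score was −1.78 and −1.84 beside −1.82 and −1.80. Likely doublets made up 21 of the 35 control cells and 14 of the 87 diabetic ones, and without them the shares were 0.564% and 4.23%, or 0.806% and 4.35% in a new random draw. By bin the diabetic share was 5.17%, 4.32%, 7.11% and 1.49%, and the control share 1.75%, 0.426%, 1.62% and 1.28%. Without the 230 and 291 cells that held 2 or more mitotic UMIs before thinning, the median of the G2 and M list was 0.15 and Mki67 was no longer called. The cells left out were picked on UMIs of that same list, so its fall was fixed by the choice. Over all genes measured, 341 were then called higher and 302 lower. The exact intervals of the libraries overlapped in the fourth bin and in none of the first 3.

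Markers of other cell types moved with the comparison as follows. The 7 immune markers summed to 4.71 CPM in control and 0.245 in diabetic Wing cells, beside 38719 and 60699 CPM in Immune cells, and Lyz2 was at 0 in both. The invariant chain gene Cd74 had 208 UMIs in control, 55.3% of them in 1 cell, and 0 in diabetic cells. The 5 TAC2 markers summed to 14.03 and 27.7 CPM, with 3 called higher, the 6 Basal markers to 564 and 709 CPM, with Krt14 called, the 6 Squam markers to 5550 and 5731 CPM and the 5 measured conjunctival markers to 2248 and 2414 CPM. Of the conjunctival set Krt4 was called higher and Cyp2f2 lower, and the goblet cell mucin Muc5ac had no row in the count matrix. The 5 LSC markers summed to 5925 and 6782 CPM, with Gpha2 called higher, and the 5 TAC1 markers to 67.5 and 71.6 CPM with none called. Markers of stromal, endothelial, Schwann, melanocyte, red and T cells and of neutrophils were each below 3 CPM in sum. Some of their defining genes, such as the keratocyte genes Kera and Lum, had no row in the count matrix. The stromal sum thus rested on Dcn, 1 of 6 markers, and the vascular sum on Pecam1, 1 of 3. The part of these other cells in the Wing differences was not tested.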

How the data were processed

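RNA of single cells was measured in 2 libraries, 1 per group. The authors deposited raw UMI counts as a matrix of 17492 genes by 17808 cells, with a cell table giving library, label and map coordinates, a score with no fixed range that was deposited as UMAP and not used here. The submitters' processing notes list Cell Ranger 5.0.0, Seurat 4 and the build mm10. How cells were filtered and labels made was not given in the sources used here. Library totals were 196359192 and 171030636 UMIs, and intervals cover counting error only.

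Counts were summed per library and label and scaled to CPM, with exact 95% Poisson intervals, conditional binomial intervals for ratios and Clopper-Pearson intervals for shares. With 1 library per group no test was run. The calling rule was run on simulated independent Poisson counts with planted changes. These had no clustering of UMIs in cells and no differences between mice, so the run checks only the rule's arithmetic. The genes named were the Wing markers, genes at least 1.5-fold above every other label, the 15 genes each way whose log2 ratio, with 10 CPM added to both levels, was largest (20 CPM or more in the higher library), called list members and genes outside the range of the other labels. A few of these genes are not reported here. Members and lists were chosen with earlier results of these data known. Scrublet's automatic threshold marked 0 cells, so the top 8% per library (791 and 683 cells) were left out as an alternative. Other alternatives were scaling, count minimum, fold, mitochondrial share, cell weighting, thinning and, chosen after seeing the data, leaving out shared barcodes, cells above 100000 UMIs and mitotic cells. Promoters, 250 bases before each start, came from RefSeq (GRCm38.p6). Scripts used scanpy 1.11.5, scipy 1.17.1, matplotlib 3.10.9, pandas 2.3.3 and numpy 2.4.6 under Python 3.11.15.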

Additional observations from a re-analysis of the deposited data

Results flagged for a closer look

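Some genes named by the rule were called one way in diabetic Wing cells and the other way in another corneal label, and none of these differences was tested. Over all called genes such opposite calls numbered 7 in LSC, 0 in Basal, 2 in TAC1, 8 in TAC2 and 6 in Squam cells. Krt18 had a ratio of 2.79 in Wing and 0.491 in LSC cells, and Ly6d 2.01 in Wing and 0.345 in Squam cells. Tppp3 had 0.574 in Wing, 2.83 in LSC and 4.33 in TAC2 cells, Krt7 0.401 in Wing and 1.78 in TAC2 cells, and Cxcl16 0.635 in Wing and 1.72 in LSC cells. Hbegf had a ratio of diabetic over control of 0.558 in Wing and 1.76 in TAC1 cells. Ly6a had 0.419 in Wing and 1.77 in LSC cells. Flrt2, a gene of low level, had 0.341 in Wing, 2.54 in LSC and 2.28 in TAC2 cells. Cyp2f2 had 0.300 in Wing and 3.1 in TAC2 cells, with 104 and 21 UMIs in Wing cells, 72.1% of the control UMIs in the top 10 cells.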

How the results depend on the processing

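No paired analysis was possible because each group had 1 library. Of the 788 called genes, 2 of the 439 still measured had the other direction in thinned cells and 2 of 743 without mitotic cells, an alternative chosen after seeing the data. Under the other settings run none did, and 9 of 46 list medians moved in thinned cells. The counts of genes called higher and lower, 475 and 313, were 153 and 119 at a fold of 2 and 192 and 181 in cells thinned to 5000 UMIs, of which 125 and 115 were among the original calls. With a minimum of 200 counts 308 genes were called higher, and with median-of-ratios scaling the counts were 382 and 376. With the total taken without Krt12, Aldh3a1, mitochondrial and ribosomal protein genes they were 584 and 263, so the share of higher among called genes went from 60.3% to 50.4% and 68.9%. Over the corneal labels alone Wing cells made up 31.8% of the control and 25.5% of the diabetic library. Without Krt14 and Krt5 the median score was 2.38 and 2.32, so that the order of the libraries turned. The mitotic share was 0.505% and 2.15% with 3 or more UMIs, 0.841% and 3.09% in cells thinned to 3000 UMIs and, in control cells without likely doublets, 0.564%, or 0.806% in a new random draw added after seeing the data. Calls were lost by 10 named genes when cells weighed equally, 9 when bins weighed equally, 6 in thinned cells and 10 without mitotic cells, among them Igfbp5, Tgfbr2, Cxcl16 and Bcam. Depth limits genes below about 1 CPM, and the lack of replicates limits every comparison.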
